A study of Mus musculus with 6 samples.

Results

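The 42 genes described here are the serpins, the proteins that activate plasminogen with their receptor, and the proteins that start or restrain clotting at the cell surface. They were taken from the 17606 genes of the table by symbol. All 34 genes whose symbol begins with Serpin were kept, together with Plau, Plat, Plaur, F3, Tfpi, Tfpi2, Thbd and Procr. Of these, 22 genes, namely 15 serpins and 7 others, had 10 or more counts in at least 3 of the 6 libraries, and fold changes are given for those only.

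The RNA came from corneal keratocytes, the resident cells of the corneal stroma, which were sorted by flow cytometry from mouse corneas. In the Ptch1-ablated group (Prrx1-creERT;Ptch1, n = 3 libraries) the floxed Ptch1 gene was removed by a tamoxifen-inducible Cre driven from Prrx1. Ptch1 is the Hedgehog receptor that holds that pathway silent. The study states that the floxed Ptch1 line was backcrossed to C57BL/6 and gives no background for the Prrx1-CreERT line. In the control group (n = 3 libraries) the labels name the mice only as controls, so the alleles that they carried are not given here. Both groups were 10 weeks old, received 3 doses of tamoxifen and were examined after 1 month. By the study's account Prrx1-CreERT also recombines in corneal endothelium and in other ocular mesenchyme, and whether a library pooled several animals is not given.

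Serpins trap the protease that attacks them by offering it a bait loop, although several members of the family inhibit nothing and act as chaperones or signals. The plasminogen activators Plat and Plau cut plasminogen into plasmin, which dissolves fibrin and helps to degrade matrix, and serpins such as Serpine2 block them. Tissue factor, encoded by F3, starts clotting together with factor VII, Tfpi stops that step, and the endothelial receptors Thbd and Procr turn thrombin towards activating the anticoagulant protein C.

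The libraries held 20258439 to 24788063 counts in the controls and 21729860 to 23530508 in the Ptch1-ablated group. Ptch1 itself had 172, 104 and 369 counts across the controls, against 4348, 5194 and 6230 across the ablated libraries, totals that count every exon and cannot show the loss of the floxed ones. The Hedgehog targets Gli1 and Hhip had at most 36 and 31 counts in any control library and at least 3022 and 23979 in any ablated library, which separates the groups as labelled. Summed over 9 keratocyte markers, the level was 98400 to 111756 CPM (counts per 1000000, adjusted for library size) in the controls and 58639 to 77281 CPM in the ablated libraries, and 6 of the 8 tested markers fell. In bulk RNA, fewer cells of a type and less RNA per cell cannot be told apart. Across all 13888 genes tested with edgeR, an adjusted p of at most 0.05 was reached by 650 genes that were higher in Ptch1-ablated keratocytes (4.68%) and by 528 that were lower (3.80%). On a TPM scale the median over all genes moved up by 0.19 (log2), and 72.8% of the changed genes were then higher, against 55.2% on the count scale.

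Against that background, 7 of the 22 genes passed, which is 31.8%. Serpine2, Thbd, Serpina3n and Serpinb6b rose (18.2%, against 4.68% of all genes tested), and F3, Serpinf1 and Serpini1 fell (13.6%, against 3.80%). With a fold of at least 2 also required, the same 4 genes were higher, against 3.36% of all genes, and F3 alone was lower (4.55%), against 2.13%. The 3 ablated libraries lay wholly above the 3 controls for 7 genes (31.8%, against 14.1% of all genes tested) and wholly below them for 3 genes (13.6%, against 13.3%), so the lower share was close to the background. Serpinb6b met the count minimum only through the ablated libraries, so it could enter only as a higher gene. The direction was divided, with 11 log2 fold changes above 0 and 11 below 0, and their median was -0.03, near the 0.0046 of all genes. Their median absolute log2 fold change was 0.90, against 0.36 over all genes. Some of the larger values came from genes with few counts and wide errors. Among them were Serpind1 (1.52, SE 1.85), Serpina3m (0.98, SE 1.68) and Serpinb6b, which had no control count.

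**Figure D1:**
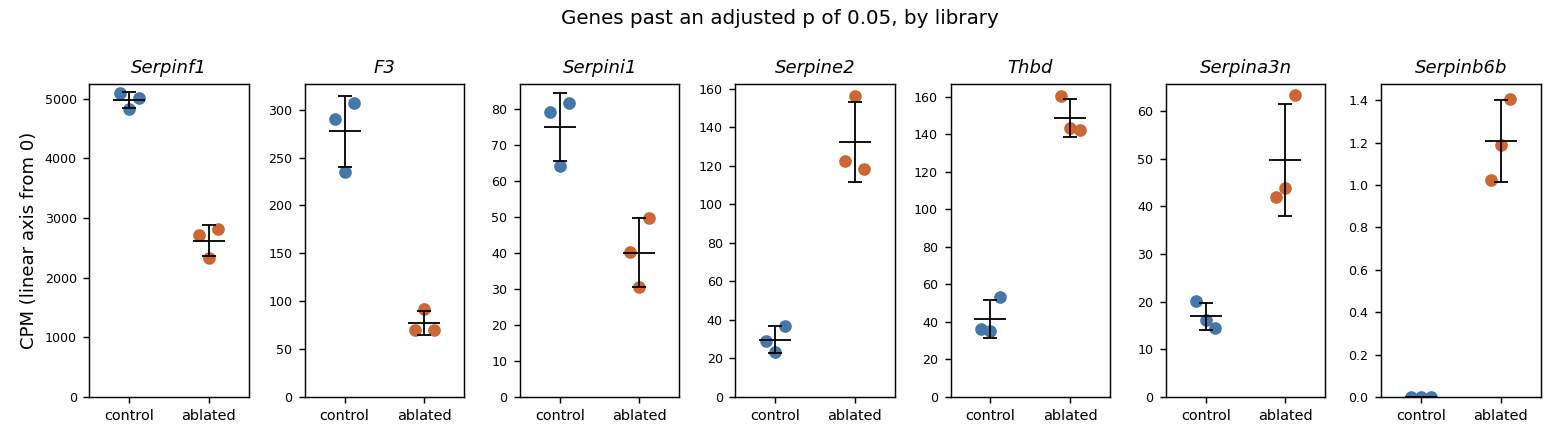
Level of the 7 changed genes in each of the 6 libraries, in CPM on an axis of its own for each gene. Each point is a library, the line is the group mean and the bar its SD (n = 3); no control library overlaps an ablated one, and Serpinb6b had no count in any control.

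Levels between genes were compared as TPM, which corrects for transcript length. Serpinf1 was the most abundant of the 22 genes in both groups, at 7878 ± 296 TPM (SD, n = 3) in the controls and 4787 ± 226 TPM in the ablated libraries. It encodes PEDF, a secreted serpin that inhibits no protease and is known in the eye for holding back blood vessel growth. Serping1, which encodes the C1 inhibitor of the complement and contact systems, came next at 4377 ± 354 and 4130 ± 442 TPM. Serpinh1, the collagen chaperone Hsp47 of the endoplasmic reticulum, followed at 864 ± 143 and 837 ± 143 TPM. These 3 serpins made up 93.2 ± 0.333% of the summed TPM of the 42 genes in the controls and 90.4 ± 0.651% in the ablated libraries.

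Below those 3 genes the order shifted. F3 had rank 4 in the controls at 337 ± 50.5 TPM and rank 7 in the ablated libraries at 109 ± 23.8 TPM. Serpine2 moved the other way, from rank 10 at 31.8 ± 7.86 TPM to rank 5 at 165 ± 35.4 TPM. In the controls, F3 stood apart from the next gene, Serpinb6a at 172 ± 28.2 TPM, while in the ablated libraries Serpinb6a, Serpine2, Tfpi, F3, Plat and Thbd lay between 182 and 98.6 TPM. In that order Serpinb6a and Serpine2 did not differ beyond their SDs, nor did Tfpi, F3, Plat and Thbd, while the lowest Serpine2 library (140.7 TPM) was above the highest Tfpi library (128.6 TPM). The sum over all 42 genes was 14072 ± 661 TPM in the controls and 10789 ± 499 TPM in the ablated libraries, a difference of 3284 TPM, and Serpinf1 alone differed by 3091 TPM.

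**Figure D2:**
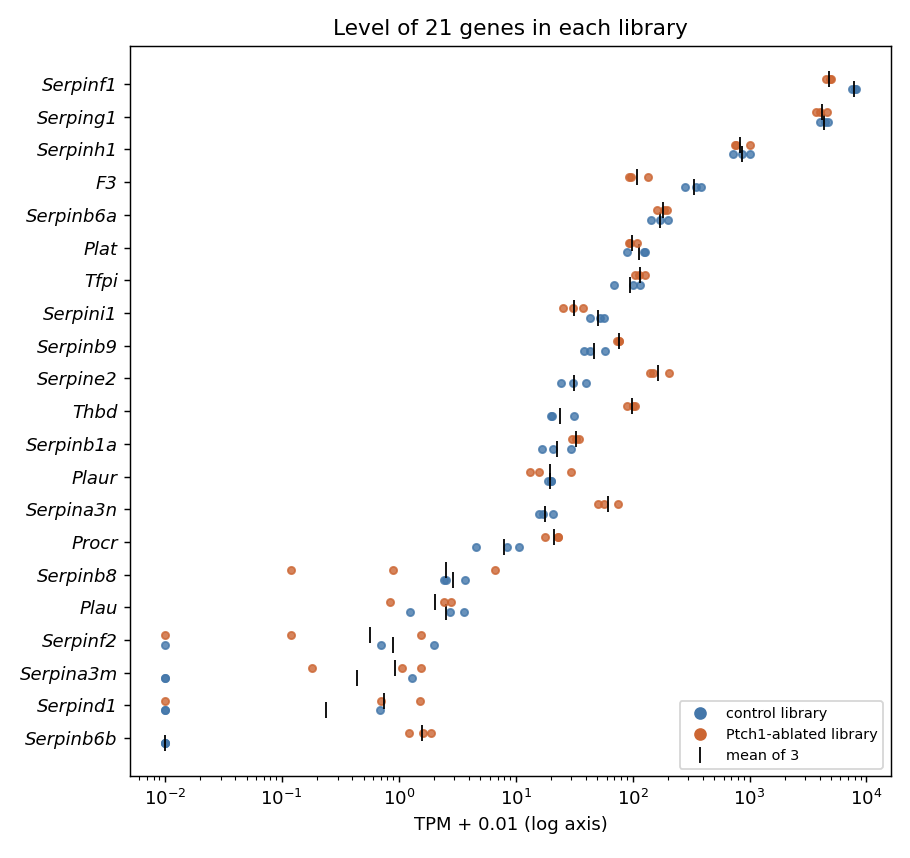
Level of 21 genes in each library, as TPM + 0.01 on a log axis, with genes ordered by their control mean and a tick at the mean of 3. Serpinf1, Serping1 and Serpinh1 lie highest in both groups, and the groups of F3, Serpine2 and Thbd do not overlap.

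F3, the cell-surface trigger of clotting, had 6319, 4472 and 7006 counts across the controls, against 1637, 2154 and 1725 across the Ptch1-ablated libraries. Every ablated library was below every control. The mean level was 277 ± 37.4 CPM in the controls and 76.9 ± 12.6 CPM after ablation, a 3.61-fold fall (log2 fold change -1.85 ± 0.17 SE, edgeR adjusted p = 2.68e-05). Tfpi, the Kunitz-type inhibitor that blocks tissue factor with factor VII, had 2470, 1364 and 2447 counts across the controls, against 2201, 2457 and 2656 across the ablated libraries, and the groups overlapped. Its log2 fold change was 0.06 ± 0.19 (95% interval -0.35 to 0.48, edgeR adjusted p = 0.911). On the TPM scale F3 stood at 3.63 ± 0.58 times the sum of Tfpi and its scarce relative Tfpi2 in the controls and at 0.92 ± 0.13 times that sum in the ablated libraries, a ratio given without a test.

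Corneal epithelium is a tissue in which F3 is also known to be expressed, so its markers are given beside it. Of 15 epithelial markers, 11 could be tested; 5 fell, and Krt12, which had no count in the controls, rose, with a median log2 fold change of -1.43. Their summed level was 90.2 to 100.2 CPM in the controls and 5.78 to 14.7 CPM in the ablated libraries, and 1 of the 15 had at most 3 counts in every library. The part of epithelial RNA in the F3 result was not tested.

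Thbd, the thrombomodulin gene, had 784, 668 and 1220 counts across the controls, against 3767, 3378 and 3529 across the ablated libraries. All ablated libraries lay above all controls, at 149 ± 10.3 CPM against 41.5 ± 10.3 CPM, a 3.58-fold rise (log2 fold change 1.84 ± 0.20, edgeR adjusted p = 8.02e-05). Procr, which encodes the endothelial protein C receptor, had 66.73, 132 and 124 counts across the controls, against 245, 293 and 346 across the ablated libraries. These groups did not overlap either, yet Procr did not pass, with a log2 fold change of 1.25 ± 0.41 (95% interval 0.36 to 2.15, adjusted p = 0.0878). It passed when the TPM values were tested with limma instead (log2 difference 1.39 with a pseudocount of 1, adjusted p = 0.0159). Summed as TPM, Thbd and Procr stood at 31.7 ± 7.46 in the controls and 120 ± 5.66 in the ablated libraries. Relative to F3, that sum was 0.09 ± 0.02 in the controls and 1.13 ± 0.19 after ablation, again without a test.

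Both receptors are known from blood vessels, so vessel markers are given beside them. Among 9 vascular endothelial markers, 5 rose (Pecam1, Cdh5, Emcn, Tie1 and Esam) and none fell past the test (median log2 fold change 1.14). Of the others, Tek and Cldn5 were higher and Kdr and Erg lower, without passing. Kdr, at 553 ± 87.3 CPM in the controls and 420 ± 15.7 CPM after ablation, had every ablated library below every control (log2 fold change -0.40, edgeR adjusted p = 0.112). The summed level of the 9 overlapped, at 770 to 977 CPM in the controls and 936 to 998 CPM in the ablated libraries. Of 7 mural cell markers, 4 rose (median log2 fold change 0.86), and their sum was 367 to 380 CPM in the controls and 672 to 685 CPM after ablation. Vwf, the endothelial carrier of factor VIII, rose from 80.5 to 290 CPM (log2 fold change 1.85 ± 0.15). Of 5 corneal endothelial markers, 1 rose (Car3) and none fell past the test (median log2 fold change 0.77). Slc4a11 and Cdh2 were higher and Col8a2 and Slc4a4 lower, without passing. The summed level of these markers overlapped, at 834 to 946 CPM in the controls and 606 to 918 CPM in the ablated libraries. Whether vascular or corneal endothelial cells in the sort took part in the Thbd difference was not tested.

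Other clotting genes were mostly low. Of 19 genes of the clotting cascade and its cofactors, 15 were in the table and 7 could be tested; Vwf rose, 3 fell, and the median log2 fold change was -0.12. Ggcx and Vkorc1, which run the vitamin K cycle that clotting factors need, fell by 0.79 and 0.98 on the log2 scale. Adamts13, the protease that trims von Willebrand factor, had 119.84, 79 and 137.83 counts across the controls, against 2.43, 0 and 1.47 across the ablated libraries. F2, the thrombin precursor, and F7, the partner of tissue factor, had at most 3 and 2 counts in any library. Among the 4 protease-activated receptors, which report thrombin and related proteases to the cell, 3 were tested. F2r, the main thrombin receptor, was the only one of them to pass, with 800, 864 and 908 counts across the controls, against 2274, 1758 and 2556 across the ablated libraries (log2 fold change 1.17 ± 0.19, edgeR adjusted p = 0.00204). Its value was also the median of the 3. F2rl2 had 0, 1 and 0 counts across the controls, against 12, 40 and 14 across the ablated libraries (edgeR adjusted p = 0.0713). F2rl3 had a log2 fold change of -0.28 and did not pass either.

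**Figure D3:**
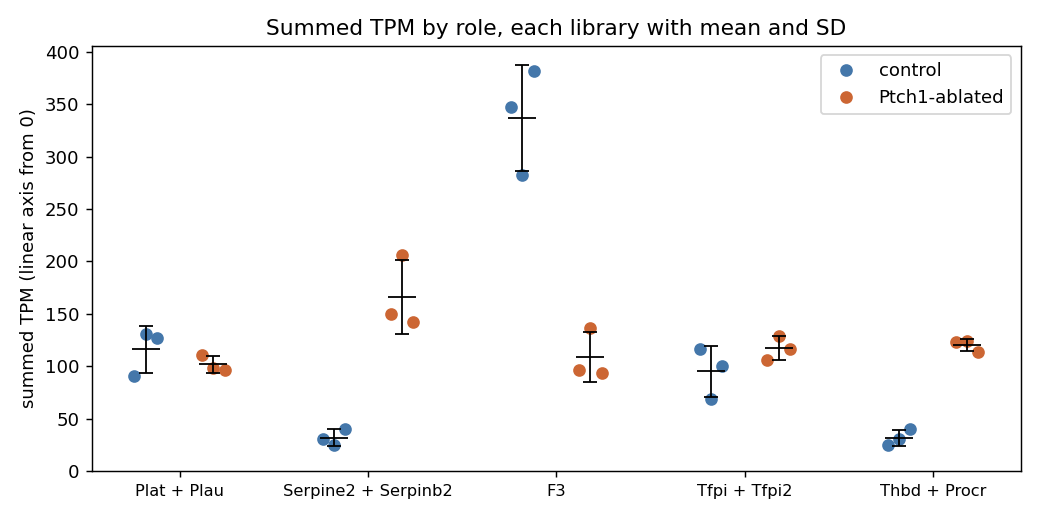
Summed TPM of the genes in each role (plasminogen activators, the inhibitors Serpine2 and Serpinb2, tissue factor, its inhibitors, and the protein C receptors) in each library, with the mean and SD of 3. Serpine2 with Serpinb2 and the protein C receptors lie higher in all 3 ablated libraries, tissue factor lies lower, and the activators and the tissue factor inhibitors overlap.

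On the plasminogen side, the activators did not pass, while of their inhibitors Serpine2 rose and Serpini1, described further on, fell. Serpine2, which encodes protease nexin-1, a serpin of the cell surface and matrix that blocks thrombin and both plasminogen activators, had 632, 443 and 842 counts across the controls, against 2876, 3671 and 2939 across the ablated libraries. The lowest ablated library exceeded the highest control. Its level rose 4.45-fold, from 29.7 ± 6.81 to 132 ± 20.6 CPM (log2 fold change 2.15 ± 0.21, edgeR adjusted p = 4.24e-05).

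Plat, the tissue-type activator, was the main activator transcript, with 2293, 2852 and 3220 counts across the controls, against 2610, 2117 and 2426 after ablation. These ranges overlapped, and the log2 fold change of -0.41 ± 0.18 did not pass (95% interval -0.79 to -0.02, adjusted p = 0.210). Plau, the urokinase gene, had 29, 73 and 65 counts across the controls, against 18, 49 and 66 across the ablated libraries, so that its interval was wide (log2 fold change -0.54, 95% interval -2.38 to 1.31). Plaur, the urokinase receptor, had 282, 246 and 266 control counts and 205, 161 and 424 ablated counts, and its log2 fold change of -0.20 did not pass (95% interval -1.04 to 0.64). Ablated library 3 was the highest of the 6 for Plaur and the other two ablated libraries were the lowest. Serpinf2, the plasmin inhibitor, had 43, 0 and 15 counts across the controls, against 0, 2 and 34 across the ablated libraries, too few to resolve a difference (log2 fold change -0.85, 95% interval -4.61 to 2.92).

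Summed as TPM, Plat and Plau stood at 116 ± 22.4 in the controls and 102 ± 7.75 in the ablated libraries. Serpine2 and Serpinb2, which block both, summed to 31.8 ± 7.86 and 166 ± 34.9 TPM. The ratio of these inhibitors to the activators ran from 0.19 to 0.34 in the 3 control libraries and from 1.35 to 2.10 in the 3 ablated libraries. With the Plat inhibitor Serpini1 added to the sum, the ratio ran from 0.52 to 0.92 in the controls and from 1.64 to 2.36 after ablation, so its size depends on which inhibitors are counted. These ratios describe transcripts, were not tested and hold no measure of protein or activity. A list of 16 further genes set beside the plasminogen system held plasminogen receptors and uptake receptors, and also Hgf and Nrp1. Of these, 11 were tested, with a median log2 fold change of 0.30, and 1 rose and 1 fell. The plasminogen receptor genes Plgrkt, Anxa2 and S100a10 did not pass (log2 fold change -0.78, -0.14 and 0.14). Without passing, Plgrkt had every ablated library below every control, and Vldlr, Vtn and Hgf had every ablated library above every control. For Plg, the plasminogen gene, no value was available. Nrp1, a co-receptor for growth factors, rose by 0.59 ± 0.14 on the log2 scale (adjusted p = 0.0173). Mrc2, the collagen uptake receptor Endo180 that associates with Plaur, fell by 1.01 on the log2 scale (SE 0.22, adjusted p = 0.0119).

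The promoters of F3, Serpine2 and Serpinf1 are shown because these genes changed in opposite directions and differ in base composition. Each runs from 250 bases before to 50 bases after the transcription start in the RefSeq annotation of GRCm38.p6, a later build than the mm9 used for the counts, and is written 5′ to 3′ on the strand of the gene. They lie at chr3:121723287-121723586 (plus strand), chr1:79858616-79858915 (minus strand) and chr11:75422574-75422873 (minus strand). Capitals mark matches on either strand to the AP-1 motif TGANTCA or the TATA box TATAAA.
F3: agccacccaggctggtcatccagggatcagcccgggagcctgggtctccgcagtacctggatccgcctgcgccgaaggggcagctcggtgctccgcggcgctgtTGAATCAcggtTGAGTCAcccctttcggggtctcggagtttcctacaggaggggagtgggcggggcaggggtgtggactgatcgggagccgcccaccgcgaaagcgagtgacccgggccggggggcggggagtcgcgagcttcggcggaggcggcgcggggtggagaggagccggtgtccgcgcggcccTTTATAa
Serpine2: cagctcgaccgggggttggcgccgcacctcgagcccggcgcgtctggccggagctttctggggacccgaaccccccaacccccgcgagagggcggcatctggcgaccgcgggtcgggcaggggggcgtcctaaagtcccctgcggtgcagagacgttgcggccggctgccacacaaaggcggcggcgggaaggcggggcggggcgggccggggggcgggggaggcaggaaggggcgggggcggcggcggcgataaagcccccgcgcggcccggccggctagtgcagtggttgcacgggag
Serpinf1: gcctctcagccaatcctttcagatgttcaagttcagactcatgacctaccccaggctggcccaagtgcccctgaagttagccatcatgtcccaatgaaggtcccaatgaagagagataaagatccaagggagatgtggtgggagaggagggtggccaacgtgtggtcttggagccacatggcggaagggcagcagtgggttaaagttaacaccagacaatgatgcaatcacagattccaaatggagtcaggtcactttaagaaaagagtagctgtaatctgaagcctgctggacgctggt
GC content was 70.3% for F3, 77.7% for Serpine2 and 50.7% for Serpinf1. F3 held AP-1 letters starting 146 and 135 bases before the start and a TATA match at base 44, and no searched motif was found in the Serpine2 or Serpinf1 window. Promoters were matched for 15 of the 22 genes; Plat, Plau, Serpina3m, Serpinb1a, Serping1 and Thbd were among those not matched. The AP-1 letters stood in 4 of the 15 (F3, Plaur, Procr and Serpinb8) and in at least 1 promoter of 8.97% of 27025 mouse genes. The Gli motif GACCACCCA stood in none of the 15 and in 0.289% of all genes, the TEAD motif GGAATG in Serpinb6a and 16.6% of all, and TATAAA in F3 and Tfpi and 15.7% of all. A match is a description of letters, and the absence of one is limited to these windows.

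Serpinf1 had 110913, 91887 and 114579 counts across the controls, against 63595, 54904 and 69954 across the ablated libraries. All ablated libraries lay below all controls, and the level fell 1.90-fold, from 4980 ± 132 to 2620 ± 254 CPM (log2 fold change -0.93 ± 0.10, edgeR adjusted p = 9.04e-05). Serpini1, which encodes neuroserpin, an inhibitor of Plat best known from nerve cells, had 1725, 1221 and 1866 counts across the controls, against 943, 718 and 1235 across the ablated libraries. Its groups also did not overlap, and it fell 1.87-fold, from 75.0 ± 9.44 to 40.1 ± 9.61 CPM (log2 fold change -0.90 ± 0.22, edgeR adjusted p = 0.0219). The Serpini1 call was lost without control library 1 or 3, without ablated library 1 or 2, and on the TPM scale, with adjusted p from 0.0532 to 0.0816. Of 6 Schwann cell markers 2 rose and none fell, with sums of 80.3 to 113 CPM in the controls and 151 to 177 CPM after ablation (median log2 fold change 0.84). The part of nerve-associated cells in the Serpini1 result was not tested.

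Serping1 had a log2 fold change of -0.29 ± 0.12 (95% interval -0.54 to -0.04) and did not pass (adjusted p = 0.167). It passed without ablated library 3 (log2 fold change -0.42, edgeR adjusted p = 0.0433). On the TPM scale its log2 difference was only -0.09 (limma with a pseudocount of 1, adjusted p = 0.713). The complement proteases that its product restrains were lower: C1ra fell by 0.63 on the log2 scale, C1s1 by 0.70 and Masp1 by 1.27, all past the test. They belong to a list of 22 proteases of the kinds that serpins hold in check, of which 14 were tested, 1 rose and 6 fell, with a median log2 fold change of 0.15. Ctsl, the lysosomal cathepsin L, fell from 3328 to 697 CPM (log2 fold change -2.26 ± 0.11).

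Serpinh1, whose product escorts newly made procollagen, had a log2 fold change of -0.25 ± 0.16 (95% interval -0.60 to 0.10, adjusted p = 0.431), and its groups overlapped. All 19 genes on a list of procollagens and the enzymes that fold and modify them in the endoplasmic reticulum were tested. Of these, 7 fell (Col1a1, Col1a2, Col5a1, Col5a2, Plod1, P3h4 and Ppib), Col3a1 rose, and the median log2 fold change was -0.46. A difference between Serpinh1 and these genes was not itself tested.

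**Figure D4:**
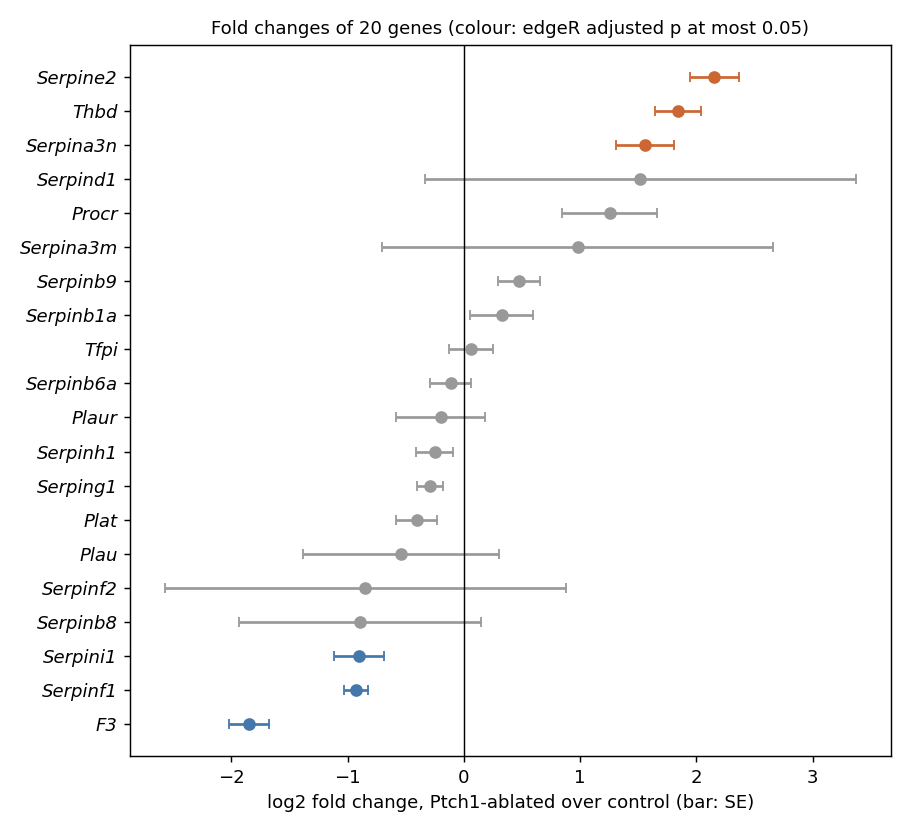
Log2 fold change, Ptch1-ablated over control, with bars of 1 SE, for 20 genes; Serpinb6b is left out because it had no count in the controls. F3, Serpinf1 and Serpini1 lie below 0 and Serpine2, Thbd and Serpina3n above 0 past the adjusted threshold, and the bars of genes with few counts, such as Serpind1 and Serpinf2, are wide.

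Among the clade A serpins, which are mostly secreted, Serpina3n was the one that passed. This acute-phase serpin, an inhibitor of proteases of immune cells, had 437, 308 and 328 counts across the controls, against 983, 1032 and 1571.15 across the ablated libraries. The groups did not overlap, and its level rose 2.94-fold, from 16.9 ± 2.90 to 49.7 ± 11.8 CPM (log2 fold change 1.56 ± 0.25, edgeR adjusted p = 0.00183). Its neighbour Serpina3m had 0, 0 and 17 counts across the controls, against 20, 2 and 14 across the ablated libraries, and its log2 fold change of 0.98 did not pass (adjusted p = 0.818). These genes belong to a cluster of paralogs. Of the 50-base windows of their transcripts, 6.9% for Serpina3n and 19.1% for Serpina3m occur in another gene, and reads from those windows could have been divided between genes. Serpind1, the heparin-dependent thrombin inhibitor, had at most 31 counts in any library and did not pass.

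Clade B serpins act mostly inside cells and protect them from their own or from immune proteases. Serpinb6b had no count in any control and 24, 28 and 35 counts in the ablated libraries. Set against 3 counts per control library, it was at least 7.65-fold higher (edgeR adjusted p = 0.0272). Its call was lost without any 1 of the 6 libraries, with adjusted p from 0.0608 to 0.111. Its paralog Serpinb6a, an inhibitor of cathepsin G, was the most abundant clade B gene at 172 and 182 TPM. On the count scale its log2 fold change was -0.11 (95% interval -0.50 to 0.28), a direction that turned on the TPM scale. Serpinb6a overlaps genes on the opposite strand, and 3.12% of Serpinb6b windows and 2.68% of Serpinb6a windows occur elsewhere in the transcripts.

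Serpinb9, the granzyme B inhibitor, had 1252, 955 and 1635 counts across the controls, against 1907, 1883 and 2172 across the ablated libraries. These groups did not overlap, but the log2 fold change of 0.47 ± 0.18 did not pass (95% interval 0.07 to 0.87, adjusted p = 0.157). On the TPM scale Serpinb9 passed, with a log2 difference of 0.72 (limma adjusted p = 0.0274). Serpinb1a, an inhibitor of neutrophil proteases, had a log2 fold change of 0.33 (95% interval -0.27 to 0.92, adjusted p = 0.567). Serpinb8, an inhibitor of furin-like proteases, varied widely between ablated libraries, with 117, 67 and 80 counts across the controls, against 128, 2 and 28 across the ablated libraries. Of 11 leukocyte markers, 2 rose (Itgam and Cd74) and none fell, while 6 had a log2 fold change below 0 and the median was -0.13. Their sum was 2623 to 2825 CPM in the controls and 3350 to 3440 CPM in the ablated libraries. Without Cd74, the sum of the other 10 overlapped between groups, at 1136 to 1160 CPM in the controls and 960 to 1264 CPM in the ablated libraries. The part of leukocyte RNA in the Serpina3n, Serpinb6b and Serpinb9 values was not tested.

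The remaining 20 genes, 19 serpins and Tfpi2, had fewer than 10 counts in 4 or more libraries and at most 55 counts in any, so no fold change is given. Of these, 10 had no count in any control library (Serpina1b, Serpina1e, Serpina3f, Serpina3g, Serpinb1c, Serpinb2, Serpinb6c, Serpinb10, Serpinb12 and Tfpi2). Another 5 had none in any ablated library (Serpina6, Serpinb1b, Serpinb5, Serpinb9c and Serpinb11), and 5 had counts in both groups (Serpina3i, Serpinb3a, Serpinb9b, Serpinc1 and Serpine3). A level of 0 in a library allows up to 3 counts, or 0.121 to 0.158 CPM, for counting error only. Serpina3g, a serpin of activated immune cells, had 2, 41 and 24.85 counts in the ablated libraries. Tfpi2, a matrix-bound inhibitor of plasmin and related proteases, had 11, 1 and 32 counts there. Serpinc1, the antithrombin gene, had 0, 3 and 1 counts across the controls, against 11, 4 and 55 across the ablated libraries. Serpinb5, which encodes the epithelial serpin maspin, had 21 counts in control library 2 and none elsewhere.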

How the data were processed

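RNA of sorted corneal keratocytes was sequenced in 3 control and 3 Ptch1-ablated libraries. The deposited table holds expected counts, TPM and FPKM for each library, which the authors made with Bowtie2 2.2.5 and RSEM 1.2.12 on mm9 per the submitters' processing notes. The labels name a TruSeq kit, whereas the study's methods give rRNA depletion and a BGISEQ sequencer; rRNA depletion also leaves RNA without a poly(A) tail, and strand is not given in the sources used here. Expected counts were rounded to whole numbers and tested with edgeR 4.0.16 (R 4.3.3) after TMM scaling and filterByExpr, by quasi-likelihood, adjusting p by Benjamini-Hochberg over the 13888 genes that passed. Changed genes are those with adjusted p at or under 0.05; the study's fold of 2 was also applied. CPM used TMM library sizes, errors are SDs unless named SE, and 3 counts were the floor. RSEM divides reads shared by similar genes, and 8 of the 42 genes had a count that was not whole. The deposited TPM served for levels between genes and, as log2(TPM + 1) and log2(TPM + 0.1), for limma 3.58.1; deposited FPKM, which repeat the same measurement, and columns of group averages and of the authors' comparison were not used. A test of 3 against 3 libraries by exact permutation cannot go below p = 0.1, so no ratio or sum was tested. The study describes 3 biological replicates per group, and the labels do not tie libraries to animals. The p-values set the group difference against the spread between these libraries. The alternatives were DESeq2 1.42.0, RLE and upper quartile scaling, other filters, stricter thresholds, TPM, a replicate block and leaving out each library. The scripts were tested on simulated counts. The genes and lists, and the rule that named genes (every other gene of the set, and up to 6 changed genes with the smallest adjusted p per pathway list), were chosen with earlier results of these data known. 1 of the 22 genes is included in the counts but not reported here. Genes of a list named beyond that rule were chosen after their values were seen. Promoters came from RefSeq (GRCm38.p6), and shared windows were counted on GENCODE transcripts.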

Additional observations from a re-analysis of the deposited data

How the results depend on the processing

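F3, Serpine2, Thbd, Serpinf1 and Serpina3n kept their direction and their call under all 14 alternative fits, and of 304 comparisons of a gene with an alternative 279 kept direction and call, 13 lost the call, 5 gained it and 7 turned direction. None of those that turned had passed the test: Serpinb6a was at 0.089 and 0.090 with limma on log2(TPM + 1) and log2(TPM + 0.1). Leaving out 1 library each gave log2 fold changes from -0.21 to 0.013 for Serpinb6a, -0.69 to 0.053 for Plaur, -4.20 to 0.54 for Serpinf2 and -0.12 to 0.18 for Tfpi. With a fold of at least 2 also required, 1 gene of the set was lower (3 without it), and 763 of all genes (1178 without it) and 12 of the pathway genes (22 without it) were changed. An adjusted p of at most 0.01 left 652 genes of the table. Leaving out 1 library left 778 (without control library 2) to 1015 changed genes, fits with fewer samples. Same-numbered libraries did not deviate together (r from -0.057 to 0.036), which cannot exclude pairing, and the labels do not say whether the numbers pair them. A replicate block gave 942 changed genes and 3 higher and 3 lower genes of the set, with Serpinb6b at an edgeR adjusted p of 0.125. A mean count of at least 50 gave no value for Serpina3m, Serpinb6b, Serpind1 and Serpinf2. Depth limits the genes with few counts: the intervals of Plau, Serpinb8, Serpind1, Serpina3m and Serpinf2 reach beyond a fold of 2 in either direction.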
